A study of Mus musculus with 20 samples.

Results

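Total RNA of cultured mouse cortical neurons was compared between Fmr1 knockout (KO) and wild-type (WT) cultures on 10 arrays, 5 KO and 5 WT, of the 20 arrays of the series. These arrays are called Input because they hold the RNA of the whole lysate, before any purification. The other 10 arrays hold CLIP RNA of the same cultures, which is the RNA recovered by immunoprecipitation of FMRP after ultraviolet crosslinking. In the KO cultures, which lack FMRP, CLIP RNA is the background of the immunoprecipitation. The comparison took in every one of the 24551 array features, which carry 21300 gene symbols. KO and WT neurons shared a C57Bl6 background, came from embryos of embryonic day 17, were kept for 8 days in culture and were irradiated at 254 nm before lysis. The knockout is named FMR1-KO in the labels, with no further description of the allele, and the sex of the embryos is not given. The design text counts 10 separate cultures without technical repeats. A difference in a culture mixes changes in RNA per cell with changes in which cells are present, and bulk RNA cannot tell these apart.

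FMRP, the protein encoded by the X-linked gene Fmr1, binds messenger RNAs in neurons, travels with ribosomes and RNA granules, and is best known for holding back the translation of bound transcripts. Its loss causes fragile X syndrome in humans. Because FMRP acts largely on translation, the level of a bound transcript in total RNA is a separate quantity from the amount of protein made from it. Total RNA therefore shows what the transcript pool of the culture looks like with and without the protein.

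Fmr1 was the transcript that separated the genotypes. It read 3.98, 4.03, 4.06, 4.34 and 4.28 in the KO cultures, against 5.49, 5.70, 5.64, 5.59 and 6.03 in the WT cultures (log2 values, replicates 1 to 5). Every KO value lay more than 1 log2 unit below every WT value. The mean was 4.14 ± 0.16 in KO and 5.69 ± 0.20 in WT (SD, n = 5 each), a difference of −1.55 (SE 0.13, 95% interval −1.83 to −1.27), or a linear level 2.94 times as high in WT as in KO. This difference passed limma's test over all features (adjusted p = 6.35e-04), and the exact two-sided permutation test gave p = 0.00794, the smallest p that 252 splits of 5 against 5 allow. The median level of olfactory receptor genes, which neurons of the cortex are not known for, was 3.41 to 3.76 in KO and 3.44 to 3.66 in WT. The KO level of Fmr1 was thus close to the foot of the scale, and a difference read there can understate the true one. In the CLIP arrays of the same cultures the Fmr1 difference was −2.57. The authors' deposited table gives a WT over KO ratio of 2.94 for Fmr1.

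The start of Fmr1 lies on the X chromosome, and the 250 bases upstream of it are shown because this is the gene that defines the groups (RefSeq, GRCm38.p6, plus strand, chrX:68678291-68678540). The capitals mark the only match, on either strand, to the 10-base palindrome known as the NRF-1 element, 93 bases before the start site when counted from its first base.

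Fmr1: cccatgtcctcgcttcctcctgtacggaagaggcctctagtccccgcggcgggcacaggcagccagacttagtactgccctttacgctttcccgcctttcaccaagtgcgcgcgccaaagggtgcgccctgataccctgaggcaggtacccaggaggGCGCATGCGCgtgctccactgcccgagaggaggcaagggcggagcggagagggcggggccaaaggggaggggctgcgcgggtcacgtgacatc

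This element occurred in the upstream windows of 237 of 27025 genes in the promoter table (0.877%). The arrays do not test binding at this window.

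No other feature passed. Of 24551 features, 1 was lower in KO and 0 were higher in KO at an adjusted p under 0.05 (0.00407% and 0.0% of all features). At an unadjusted p under 0.05 there were 398 features with higher values in KO (1.62%) and 550 with lower values in KO (2.24%), 948 in all (3.86%), whereas 0.05 of all features would be 1227.5. The total ranged from 630 without KO replicate 5 to 2004 with the SD of each array as a covariate, so it lay on either side of that number depending on the fit. This split turned with the scaling of the arrays: it was 229 higher and 782 lower with median centring, and 1070 higher and 934 lower with the SD of each array as a covariate. Over all features 52.6% of differences were above 0 and 47.4% below. All 5 KO values lay above all 5 WT values in 67 features (0.273%) and below them in 104 (0.424%). Some 97.8% of features had a 95% interval of the difference inside plus or minus 1 log2 unit, and 77.0% inside plus or minus 0.58, which is a 1.5-fold change. The median difference over all features was 0.01, the median SE was 0.15, and 5 features differed by more than 1 log2 unit. The p-values in the authors' deposited table, from a permutation method, were under 0.05 for 1065 features without correction.

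**Figure D1:**
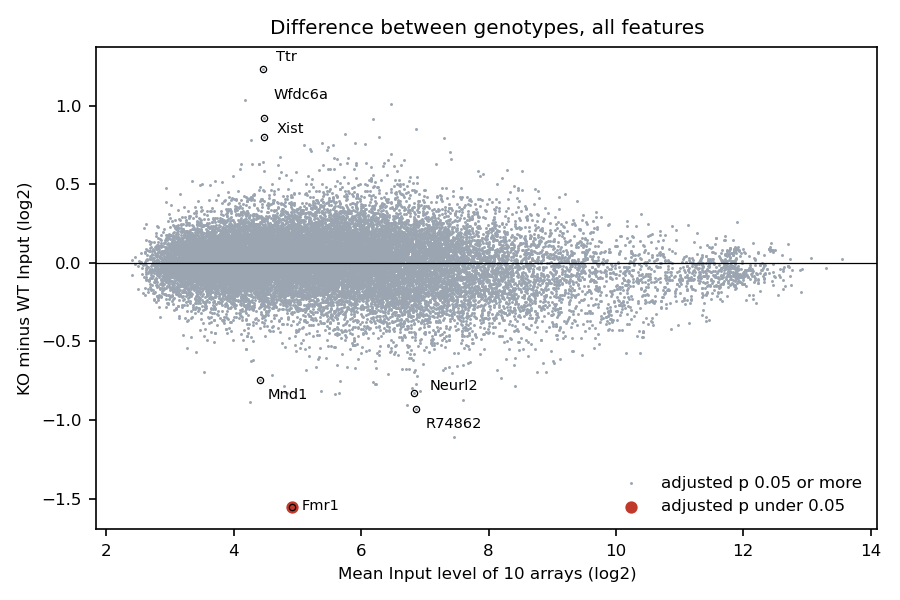
Difference in Input level (KO minus WT, log2, vertical axis) against the mean level of the 10 Input arrays (log2, horizontal axis), 1 point per feature. Fmr1, in red at −1.55, is the 1 feature with an adjusted p under 0.05, and open circles mark other features named in the text.

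Mnd1, which encodes a partner of the meiotic recombination machinery, came next. It read 4.11, 4.09, 4.06, 3.97 and 3.99 in KO, against 4.74, 4.75, 4.86, 4.92 and 4.67 in WT. The groups did not overlap, and the difference of −0.74 (SE 0.10, 95% interval −0.96 to −0.53) missed the threshold (adjusted p = 0.0645). Alternative models called it, with adjusted p = 0.0285 for all 20 arrays in 1 limma fit, 0.0307 with array weights and 0.0321 with the array SD as a covariate. Its levels are near the foot of the scale. In CLIP RNA of the same cultures the Mnd1 difference was 0.19.

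The other features with the lowest p among those lower in KO without overlap carried a mixture of roles, and none of them passed. Neurl2, a substrate receptor of a ubiquitin ligase known from muscle, read 6.32, 6.52, 6.58, 6.20 and 6.44 in KO, against 6.83, 7.50, 7.19, 7.08 and 7.61 in WT, a difference of −0.83. R74862, a transcript without an assigned role, differed by −0.93, with 6.14 to 6.59 in KO and 6.99 to 7.79 in WT. Ewsr1, an RNA-binding protein gene, differed by −0.66 at 1 of its 3 features, while the others differed by 0.12 and 0.00. Its features therefore disagree, and their mean gave −0.18. Rpl26-ps2, a ribosomal protein pseudogene, and Xlr, an X-linked lymphocyte gene, differed by −0.54 and −0.47, with KO levels of 2.90 to 3.18 across both that are at the foot of the scale.

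Ndufaf2, an assembly factor of respiratory complex I, read 8.77, 8.43, 8.68, 8.49 and 8.37 in KO, against 9.27, 9.39, 9.28, 9.38 and 8.90 in WT, a difference of −0.69 (95% interval −0.97 to −0.41, adjusted p = 0.706). Fam36a (now Cox20), an assembly factor of complex IV, read 9.72 to 10.01 in KO and 10.21 to 10.58 in WT, a difference of −0.57 at this feature and −0.35 at a second one. AI462493 (now Uqcc3), an assembly factor of complex III, differed by −0.64, and Mrpl54, a protein of the mitochondrial ribosome, by −0.59. Ndufc1, a small subunit of complex I, differed by −0.58 at a feature placed on chromosome 13 and by −0.39 at the one on chromosome 3, and the KO and WT values did not overlap at either.

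Among the features with higher values in KO and no overlap, none passed either. Mll2 (now Kmt2d), a histone H3 lysine methyltransferase, read 6.44, 5.72, 5.60, 5.74 and 5.64 in KO, against 5.12, 5.25, 5.03, 5.18 and 4.97 in WT, a difference of 0.72 at 1 of its features and 0.38 as the mean of its features. KO replicate 1 stood above the other KO cultures there. Gem, a small GTPase that inhibits voltage-gated calcium channels, read 4.84, 5.02, 4.66, 4.45 and 4.88 in KO, against 3.88, 4.21, 3.93, 4.37 and 4.27 in WT, a difference of 0.64. Cyp1b1, a cytochrome P450 enzyme, differed by 0.63 (0.32 as the mean of its features), and Elp4, a subunit of the Elongator complex that modifies transfer RNA, by 0.78 (0.49 as the mean of its features).

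Wfdc6a, whose product belongs to a family of small secreted protease inhibitors, differed by 0.92, with 4.40 to 5.74 in KO and 3.76 to 4.16 in WT. Pomt1, a protein O-mannosyltransferase, and Pex7, a receptor for import into peroxisomes, each differed by 0.47. Vgll4, a cofactor of TEAD transcription factors, differed by 0.62, and Mavs, an adaptor of antiviral signalling on mitochondria, by 0.55. Oscar, an immune receptor, differed by 0.46, Ikzf5, a zinc finger factor, by 0.44, and Nr2e1, a nuclear receptor of neural progenitors, by 0.43. In the CLIP arrays the differences of these 12 features lay between −0.04 and 0.28, and none was as large there as in the Input arrays. The features were chosen by their Input values, so smaller differences in other arrays were likely beforehand. CLIP RNA is also a different quantity from total RNA.

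**Figure D2:**
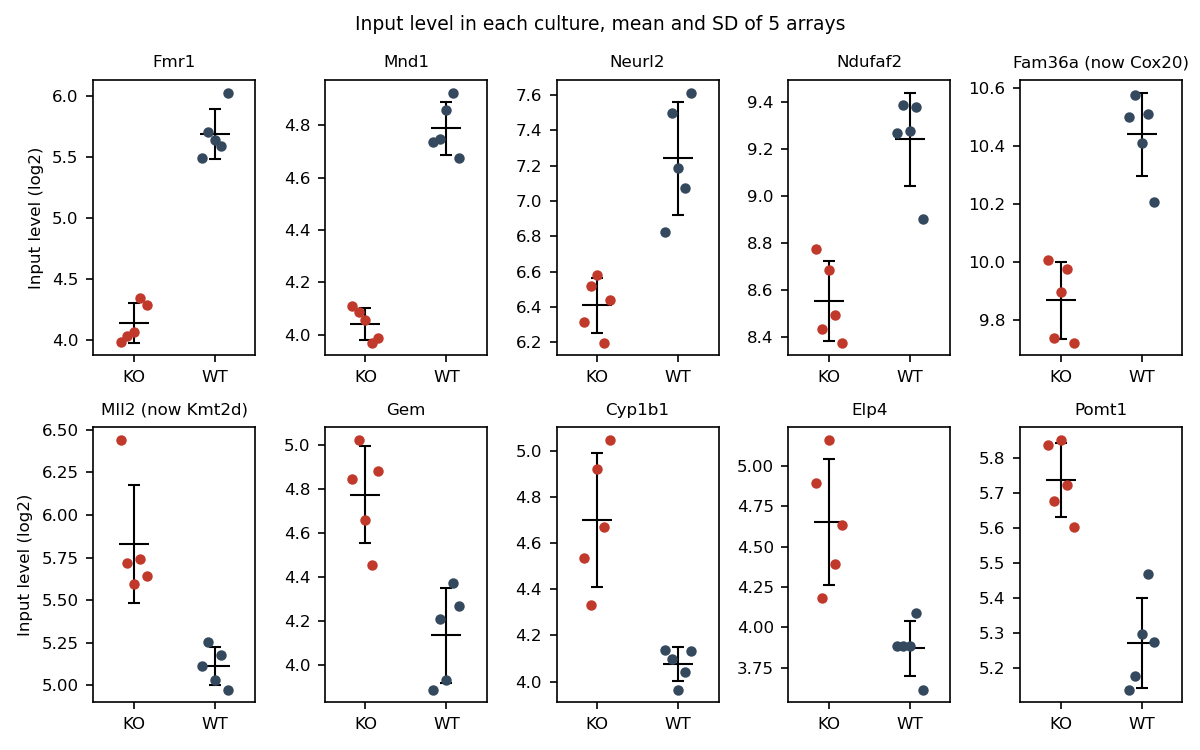
Input level (log2) of 10 features in each culture, KO left and WT right, with 1 point per array and the mean and SD of 5 arrays as a bar. Fmr1 passed the test, while the other panels show features chosen because their KO and WT values do not overlap, none of which passed.

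The paralogs of Fmr1 and the partners of its protein did not pass. Fxr1, which encodes the closest relative together with Fxr2, read 7.88, 6.62, 7.62, 6.89 and 7.47 in KO, against 7.65, 7.57, 7.48, 7.78 and 7.64 in WT. The 2 lowest Fxr1 values were those of KO replicates 2 and 4, and the difference of −0.33 had an interval of −0.78 to 0.13. Without these 2 arrays the Fxr1 difference was 0.03. Fxr2 read 6.23, 6.05, 6.27, 5.92 and 6.42 in KO, against 6.14, 5.49, 5.55, 6.23 and 5.92 in WT, a difference of 0.31 with an interval of −0.04 to 0.67. These intervals leave room for a change of Fxr2 of up to 0.67 log2 units but not for a gain the size of the Fmr1 difference. Cyfip1 and Cyfip2, which bind FMRP and the actin regulator WAVE, differed by 0.02 and 0.07. Of the 37 genes for FMRP partners and RNA granules, 20 had a difference above 0 and 17 below, with a median of 0.01. Fmr1 was the 1 of them that passed, and Nufip1, which encodes a nuclear FMRP-interacting protein, differed by −0.56 with an interval of −1.12 to −0.01 in the fit on 1 value per gene, and of −1.14 to 0.01 in the fit on all features.

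The neighbours of Fmr1 on the X chromosome were looked at because they lie beside the disrupted gene. None of the 21 measured neighbours passed, 9 differed above 0 and 12 below, and the median was −0.04. In the fit on 1 value per gene they ran from −0.32 (Gabra3, interval −0.95 to 0.31) to 0.48 (BC023829, interval −0.09 to 1.05). Fmr1nb, which lies next to Fmr1, read 3.24 to 3.67 in KO and 3.31 to 3.57 in WT, at the foot of the scale. Aff2, the gene mutated in a related X-linked intellectual disability, differed by 0.01 with an interval of −0.41 to 0.42. Ids, a lysosomal sulfatase gene with high levels, differed by 0.14 with an interval of −0.16 to 0.43.

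Diacylglycerol kinases turn diacylglycerol into phosphatidic acid and so balance 2 lipid messengers downstream of group I metabotropic glutamate receptors. Dgkk, the member that the title of the series is about, read 4.48, 4.37, 4.29, 4.65 and 4.18 in KO, against 4.35, 4.59, 4.39, 4.08 and 4.27 in WT. The groups overlapped fully, and the difference was 0.06 with an interval of −0.22 to 0.34. These levels are near the foot of the scale, as for Mnd1, which limits what difference could be read. In CLIP RNA of the same cultures the Dgkk difference was −2.40. None of the 10 kinases passed in Input, the median of the family was 0.05, and the members lay between −0.14 (Dgkb) and 0.19 (Dgkg). Of 59 genes of lipid and phosphoinositide signalling, 0 passed, and the median was 0.01. At an unadjusted p under 0.05, 0 had a higher and 2 a lower value in KO, where all genes gave 1.62% higher and 2.08% lower.

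Transcripts long described as bound or regulated by FMRP also stayed below the threshold. For the gene lists, features of a symbol were averaged, which left 21301 genes, of which 1 passed (0.00469%), 53.5% had a difference above 0, 3.71% had an unadjusted p under 0.05 (1.62% higher and 2.08% lower in KO), and 0.282% and 0.408% did so without overlap of the groups. Of 139 classic FMRP targets 0 passed, 93 had a difference above 0, and 5 had higher and 0 lower KO values at an unadjusted p under 0.05. The median was 0.07, against 0.01 over all genes. The 5 were Mll2, Aplp1 (0.35), Ptprf (0.35), Lrp3 (0.35) and Celsr2 (0.34), which encode a methyltransferase, a relative of the amyloid precursor protein, a receptor phosphatase, a lipoprotein receptor relative and an adhesion receptor. The targets were high in KO replicates 1 and 3, at 0.28 and 0.29 above each gene's mean, and low in KO replicates 2 and 4, at −0.17 each, against −0.11 to 0.04 in the WT cultures. The list median was 0.00 without KO replicate 3 and 0.22 without KO replicates 2 and 4.

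The transcripts used most often to describe fragile X neurons gave small differences. Arc, an immediate early gene of synaptic plasticity, read 4.86, 5.62, 5.22, 5.89 and 5.58 in KO, against 5.72, 5.77, 5.78, 5.74 and 5.83 in WT, a difference of −0.33 with an interval of −0.70 to 0.03. The WT values were tight, and KO replicates 1 and 3 were the lowest. Grm5, the glutamate receptor at the centre of the mGluR account of fragile X, read 8.61, 7.49, 8.75, 7.37 and 8.15 in KO, against 7.99, 7.65, 7.17, 7.74 and 7.78 in WT, a difference of 0.41 with an interval of −0.16 to 0.98. Grm5 was above every WT value in KO replicates 1, 3 and 5, and within the WT range in KO replicates 2 and 4. Camk2a, a postsynaptic kinase, differed by −0.13, and Shank3, a postsynaptic scaffold, by −0.18, both with intervals on each side of 0.

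Synaptic and channel gene lists had medians near 0. The postsynaptic scaffold list (39 genes) had a median of −0.01, GABA and glycine receptors (21 genes) −0.01, presynaptic release genes (51 genes) 0.03, voltage-gated channels (52 genes) 0.01, ionotropic glutamate receptors with their auxiliary subunits (29 genes) 0.07 and metabotropic glutamate receptors (8 genes) 0.09. None of their members passed. Cacng7, an auxiliary subunit of AMPA-type receptors, differed by 0.70, with 7.39 to 8.06 in KO and 6.51 to 7.47 in WT. Immediate early genes (30 genes) had a median of 0.05, and those for mTOR and translation initiation (40 genes) 0.01. Protocadherins, adhesion proteins of neurons, had 7 of 11 differences above 0 and a median of 0.14, and 0.02 without KO replicate 1.

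Genes of oxidative phosphorylation had the lowest median of the 32 lists. The list holds the nuclear-encoded subunits of the respiratory chain and of ATP synthase. Of 75 genes 60 had a difference below 0, against 46.5% of all genes, and the median was −0.17, against 0.01 over all genes. Genes of like level and length were also mostly below 0. Among genes with a mean level above 9, the share was 79.3% for those spanning up to 5 kb. It was 67.5% for those spanning 5 to 20 kb. At an unadjusted p under 0.05 there were 18 lower and 1 higher in KO, where all genes gave 2.08% lower and 1.62% higher. In 9 the KO values lay below all WT values, against 0.408% of all genes. None passed with adjustment over all features. The median stayed below 0 in all 19 refits, between −0.20 with median centring and −0.11 with quantile normalization. As a group median per culture, the list stood at 0.07, −0.11, −0.05, −0.12 and −0.20 in KO, against 0.09, 0.01, 0.12, 0.11 and 0.08 in WT. KO replicate 1 overlapped the WT cultures, and the other 4 KO cultures lay below them.

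Complex I, which takes electrons from NADH, had 33 of 36 genes below 0 and a median of −0.24. Complex III had 6 of 9 below 0 with a median of −0.19, and complex IV 10 of 10 with a median of −0.16. ATP synthase had 9 of 15 below 0 with a median of −0.04. Complex II, which is also an enzyme of the citric acid cycle, had 1 of 4 below 0 with a median of 0.17, and Sdhc differed by 0.48. No difference between complexes was tested. Ndufa1, a small membrane subunit of complex I, read 10.52, 10.32, 10.36, 10.56 and 10.16 in KO, against 10.59, 10.74, 10.84, 10.95 and 10.79 in WT, a difference of −0.40. Ndufb4, another small subunit of complex I, differed by −0.39 at 1 of its features, with 10.18 to 10.54 in KO and 10.61 to 10.81 in WT, and by −0.36 as the mean of its features. Uqcrb, a subunit of complex III, had 3 features that differed by −0.61, −0.56 and −0.56. The features of Uqcrb and of Ndufc1 are placed on different chromosomes, so that near-identical copies may share signal, and they are not independent readings.

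The proteins of the mitochondrial ribosome, a group chosen after its values were seen, were mostly below 0 as well. Of 75 genes 66 had a difference below 0, and the median was −0.19. At an unadjusted p under 0.05, 22 were lower and 0 higher in KO, where all genes gave 2.08% lower and 1.62% higher. Per culture the group stood at 0.15, −0.22, −0.02, −0.20 and −0.17 in KO, against 0.26, −0.06, 0.10, 0.21 and 0.06 in WT. KO replicate 1 again lay among the WT cultures, and WT replicate 2 among the KO cultures. Cytoplasmic ribosomal proteins had 65 of 79 genes below 0 with a median of −0.06 and 0 genes at an unadjusted p under 0.05 in either direction. Their median was 0.01 once all arrays were given the same mean and SD. Proteasome subunits had 22 of 31 genes below 0 with a median of −0.08, and 0.05 without KO replicates 2 and 4.

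The differences also moved with level and with gene length, over all genes. Genes with a mean level above 10 had a median difference of −0.06 and 70.7% below 0, whereas genes between 5 and 6 had a median of 0.03 and 40.7% below 0. With quantile normalization both medians were 0.01, so the trend with level was not seen under that scaling. Among protein-coding genes above a level of 9, the 295 with a span of up to 5 kb had a median of −0.08 and 79.3% below 0. The 255 with a span of 5 to 20 kb had a median of −0.07 and 67.5% below 0. The 45 with a span above 100 kb had a median of 0.07 and 31.1% below 0. With quantile normalization these medians by span were −0.01, 0.01 and 0.16, in the same order. The oxidative phosphorylation genes have a median level of 10.0 and a median span of 7.13 kb, and the classic FMRP targets a median span of 114 kb. The cytoplasmic ribosomal proteins have a median level of 11.5 and a median span of 3.16 kb. How far level and span account for the list medians was not tested.

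**Figure D3:**
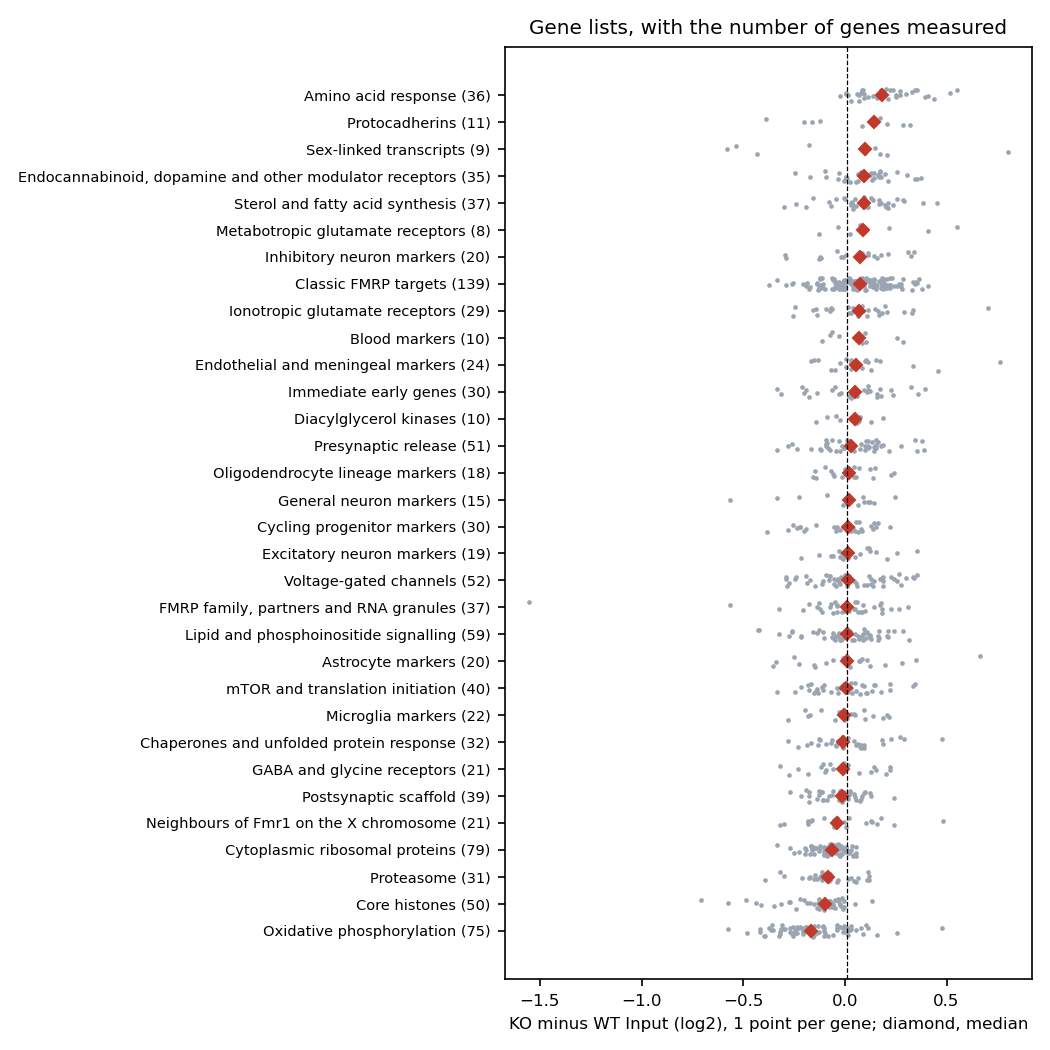
Difference in Input level (KO minus WT, log2) of the genes of 32 lists, 1 grey point per gene and a red diamond at the median, with the number of genes measured in brackets. The dashed line is the median of all genes, 0.01, and the list medians run from −0.17 for oxidative phosphorylation to 0.18 for the amino acid response, with 1 gene, Fmr1 at −1.55, that passed.

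The amino acid response had the highest median. These genes are raised by the transcription factor ATF4 when amino acids run short or the endoplasmic reticulum is stressed, and they encode amino acid transporters, synthesis enzymes and transfer RNA synthetases. Of 36 genes 35 had a difference above 0, and the median was 0.18. At an unadjusted p under 0.05, 3 were higher and 0 lower in KO, where all genes gave 1.62% higher and 2.08% lower. None passed. Mthfd2, a mitochondrial folate enzyme, read 6.71, 6.44, 6.11, 5.89 and 6.96 in KO, against 5.97, 5.54, 5.78, 5.75 and 6.47 in WT, a difference of 0.52. Slc7a11, the cystine transporter, read 5.02, 4.85, 4.59, 4.59 and 4.70 in KO, against 4.92, 4.18, 4.31, 4.21 and 4.08 in WT, a difference of 0.41. Slc1a5, a glutamine transporter, differed by 0.33. Asns, the asparagine synthetase that is a textbook member of the response, differed by 0.01, with 8.08 to 9.47 in KO and 8.57 to 9.24 in WT.

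The level of the group varied between cultures within each genotype. Its median per culture was 0.33, −0.04, 0.14, −0.34 and 0.43 in KO, against 0.33, −0.13, −0.33, −0.20 and −0.13 in WT. KO replicates 1 and 5 and WT replicate 1 were high, while KO replicate 4 and WT replicate 3 were low, so the groups overlapped from end to end. The list median was 0.11 without KO replicate 5. Chac1, which encodes a glutathione-degrading enzyme, read 6.40, 6.70, 6.13, 6.49 and 7.06 in KO, against 6.98, 6.39, 6.01, 5.61 and 6.51 in WT. Gars, the glycyl-tRNA synthetase, read 9.23, 8.98, 9.09, 8.61 and 9.42 in KO, against 9.21, 8.73, 8.62, 8.93 and 8.80 in WT. In both genes KO replicate 5 held the highest value of all 10 cultures.

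Upstream windows of 3 members are shown because the list varied as a group between cultures. They are the 250 bases before the start site in RefSeq, GRCm38.p6, for Slc7a11 on the minus strand (chr3:50443614-50443863), Gars on the plus strand (chr6:55037751-55038000) and Chac1 on the plus strand (chr2:119350992-119351241). Capitals mark matches on either strand to TGATGNAAN, the C/EBP-ATF response element to which ATF4 binds.

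Slc7a11: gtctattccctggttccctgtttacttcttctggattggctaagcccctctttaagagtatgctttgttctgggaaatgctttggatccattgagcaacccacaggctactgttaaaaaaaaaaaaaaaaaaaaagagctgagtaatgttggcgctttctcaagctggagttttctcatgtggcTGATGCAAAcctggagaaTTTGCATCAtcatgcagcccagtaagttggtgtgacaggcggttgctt

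Gars: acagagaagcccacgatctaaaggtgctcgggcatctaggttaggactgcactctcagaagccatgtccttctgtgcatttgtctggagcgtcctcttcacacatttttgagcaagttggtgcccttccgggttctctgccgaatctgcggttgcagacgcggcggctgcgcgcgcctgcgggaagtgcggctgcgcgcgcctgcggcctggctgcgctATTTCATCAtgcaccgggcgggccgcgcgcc

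Chac1: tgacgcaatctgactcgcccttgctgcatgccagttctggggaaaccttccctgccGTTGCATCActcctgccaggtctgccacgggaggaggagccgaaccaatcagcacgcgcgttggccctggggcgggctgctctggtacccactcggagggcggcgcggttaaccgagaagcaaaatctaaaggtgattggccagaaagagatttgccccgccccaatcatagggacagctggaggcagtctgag

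Of the 29 list members with an entry in the promoter table, 8 held the element (27.6%), which were Aars, Asns, Chac1, Gars, Nupr1, Slc7a11, Tars and Vldlr. Of all 27025 genes 1052 held it (3.89%). Among 63 oxidative phosphorylation genes with an entry, 0 held it. The NRF-1 element was held by 4 of those 63 (6.35%), by 1 of the 29 amino acid list members (Shmt2, 3.45%) and by 0.877% of all genes. A match is a match of letters, and binding was not measured. The amino acid list was made of genes described as raised by ATF4, so a high share was likely beforehand and says nothing about these cultures.

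**Figure D4:**
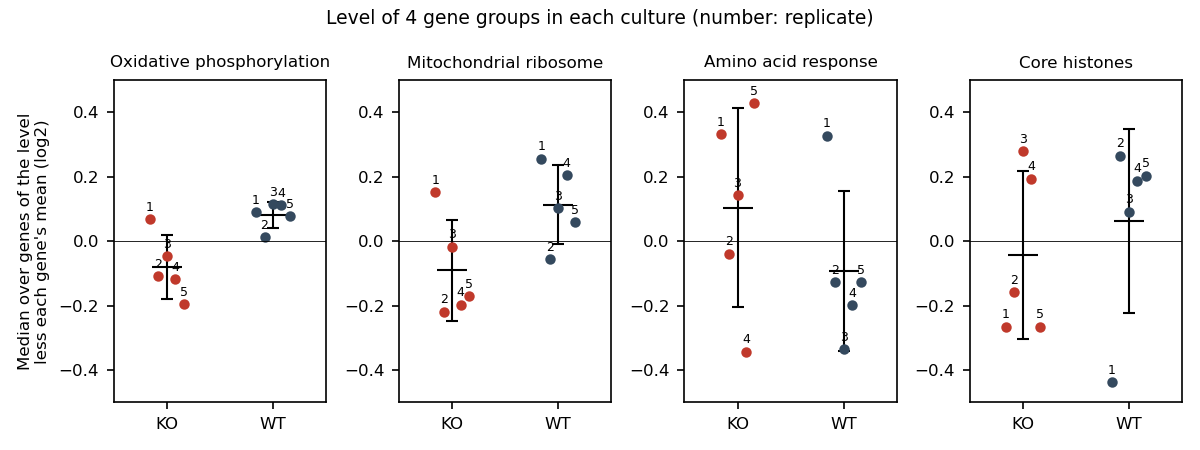
Level of 4 gene groups in each culture, KO left and WT right, as the median over genes of the level less each gene's mean (log2), with the replicate number beside each point and the mean and SD of 5 cultures as a bar. Oxidative phosphorylation lies below the WT cultures in 4 of 5 KO cultures, while the other 3 groups overlap.

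Core histone genes, most of which are transcribed during DNA replication, had 48 of 50 genes below 0 and a median of −0.10. Of these 3 were lower and 0 higher in KO at an unadjusted p under 0.05 (2.08% and 1.62% over all genes), and none passed. Several members had nearly equal values, such as Hist1h2ah (−0.006, SE 0.157) and Hist1h2ai (−0.005, SE 0.157). Near-identical copies may share signal, so the 50 genes are not independent readings. Per culture the group stood at −0.26, −0.16, 0.28, 0.19 and −0.26 in KO, against −0.44, 0.27, 0.09, 0.19 and 0.20 in WT. The lowest culture was thus WT replicate 1, and without it the list median was −0.26. With quantile normalization it was 0.00. Hist1h4h (now H4c8) differed by −0.58, with 6.96 to 7.49 in KO and 7.23 to 8.30 in WT. Markers of cycling progenitors had a median of 0.01 over 30 genes, and Mki67, which marks dividing cells, differed by −0.04.

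Genes for sterol and fatty acid synthesis had 28 of 37 differences above 0 and a median of 0.09. Dhcr7, which makes cholesterol in the last step of its pathway, read 8.94, 8.47, 8.64, 8.23 and 8.57 in KO, against 8.43, 8.00, 7.56, 8.25 and 8.36 in WT, a difference of 0.45. The list median was 0.01 without WT replicate 3. Receptors for endocannabinoids, dopamine and other modulators had 28 of 35 differences above 0 and a median of 0.10, with Chrna3, a nicotinic receptor subunit, at 0.38 and Htr1b, a serotonin receptor, at 0.34. Chaperones and the unfolded protein response (32 genes) had a median of −0.01, and Hspa5, the main chaperone of the endoplasmic reticulum, differed by 0.29. None of these passed.

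The cultures carried neuronal transcripts at high levels in both genotypes. Tubb3, the neuronal tubulin, read 10.17 to 10.98 in KO and 10.14 to 10.75 in WT, and Stmn2, a microtubule regulator of growing neurites, 11.46 to 11.65 in KO and 11.30 to 11.61 in WT. General neuron markers (15 genes) had a median difference of 0.02, excitatory neuron markers (19 genes) 0.01 and inhibitory neuron markers (20 genes) 0.08. Nxph1, a marker of inhibitory neurons, differed by 0.31 at a feature whose groups did not overlap, and Reln, made by Cajal-Retzius cells and some interneurons, by 0.34, whereas Gad1, which makes GABA, differed by −0.29. None of these passed.

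Lists of markers of other cells gave small differences, and the levels of different probes cannot be compared as amounts of cells. The astrocyte list (20 genes) had a median difference of 0.01. Gfap, Sox9 and Vim, 3 of its genes, were higher in KO at an unadjusted p under 0.05, against 1.62% of all genes. Gfap, the intermediate filament of astrocytes, read 6.21, 5.38, 6.42, 6.19 and 6.42 in KO, against 5.54, 5.15, 6.05, 4.83 and 5.73 in WT, a difference of 0.66 with an interval of 0.13 to 1.20 that did not pass. Slc1a2 and Aqp4, also made by astrocytes, differed by −0.15 and −0.25. The median difference was 0.00 for microglia markers (22 genes), 0.07 for blood markers (10 genes), 0.05 for endothelial and meningeal markers (24 genes) and 0.02 for oligodendrocyte lineage markers (18 genes).

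Ttr, the transthyretin made by the choroid plexus in brain, read 8.07 in KO replicate 1 and 4.37, 4.39, 4.19 and 4.35 in the other KO cultures, against 3.52, 3.85, 4.06, 3.75 and 4.01 in WT. All KO values were above all WT values, but the difference of 1.23 had an interval of −0.08 to 2.55 with KO replicate 1 far above the others. Cldn10, a tight junction gene, differed by −0.90 and −0.77 at its 2 features, with KO replicates 2 and 4 the lowest and KO replicate 1 at WT levels.

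Sex-linked transcripts varied between cultures within each genotype. Xist, the RNA that coats the inactive X chromosome in female cells, read 7.01, 3.49, 7.15, 3.30 and 3.43 in KO, against 3.26, 4.64, 3.12, 3.39 and 5.96 in WT. It was high in KO replicates 1 and 3 and in WT replicate 5, and intermediate in WT replicate 2. Eif2s3y, a Y-linked translation factor gene, read 3.91, 5.94, 4.57, 6.07 and 6.59 in KO, against 7.26, 5.67, 6.91, 6.37 and 3.77 in WT. The cultures high in Xist were the lowest in Eif2s3y, and the multicopy Y genes Ssty1, Ssty2 and Sly, read as a median over 29 features, were also lowest in KO replicate 1 (3.76) and WT replicate 5 (3.72). For these multicopy genes KO replicate 3, high in Xist, read 4.64, and WT replicate 4, low in Xist, read 4.80. Both patterns cut across the genotypes, with 2 of 5 KO cultures and 1 of 5 WT cultures high in Xist. None of the 9 measured sex-linked transcripts passed, and 5 differed above 0 and 4 below. Kdm5d, a Y-linked gene, differed by −0.54 with an interval of −1.08 to 0.004 in the fit on 1 value per gene. KO replicates 1 and 3 were also the cultures in which the classic FMRP targets and Grm5 were highest. WT replicate 5, also high in Xist, stood at −0.04 for the targets. KO replicate 5, low in Xist, was above every WT culture in Grm5. KO replicates 1 and 3 were also the highest KO cultures for other lists. They stood at 0.28 and 0.17 for mTOR and translation initiation, and at 0.21 and 0.15 for presynaptic release. For voltage-gated channels they stood at 0.20 and 0.24, and for chaperones at 0.28 and 0.24. For microglia markers they were the lowest KO cultures, at −0.16 and −0.18. Their arrays had the highest SD of the KO arrays, 2.01 and 1.97. The parts of sex and of array spread in those values were not tested.

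**Figure D5:**
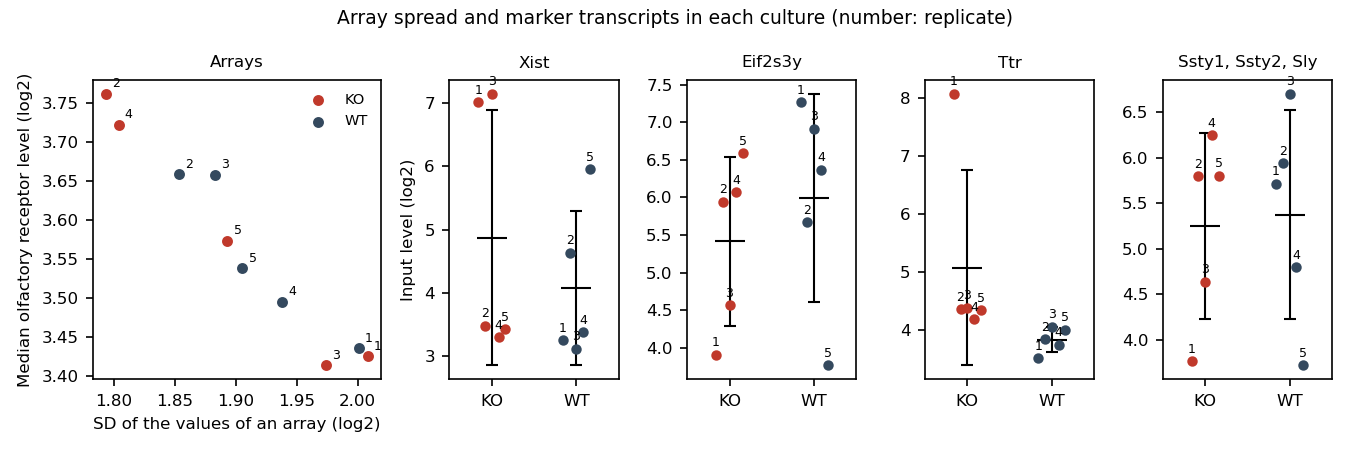
Left, the median level of olfactory receptor genes (log2) against the SD of all values of an array (log2), 1 point per Input array with its replicate number. Right, the Input level of Xist, Eif2s3y, Ttr and the multicopy Y genes in each culture, KO left and WT right, with the mean and SD of 5 cultures, in which high Xist goes with low Eif2s3y and Ttr is high in KO replicate 1 alone.

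The arrays themselves differed in spread. The SD of the log2 values of an array was 2.01, 1.79, 1.97, 1.80 and 1.89 in KO, against 2.001, 1.85, 1.88, 1.94 and 1.91 in WT, and the 2 lowest were KO replicates 2 and 4. The median olfactory receptor level fell with this SD across the 10 arrays (Pearson r = −0.97, permutation p = 2e-05, adjusted 8.00e-05 over 4 relations; Spearman rho = −0.96, permutation p = 6.00e-05). It was −0.96 without the 2 arrays farthest from the median SD, −0.99 within KO and −0.94 within WT. Olfactory receptor genes lie at the foot of the scale and are among the values that make up the SD. Part of this relation is therefore built in, and its p-value does not speak for a separate effect. The main axis of variation (39.7% of the variance) ran from KO replicate 1 and WT replicate 1 at one end to KO replicates 2 and 4 at the other. Pairs of arrays correlated across features with a median r of 0.979 within KO, 0.979 between KO and WT and 0.979 within WT, so the genotypes did not separate over all features. The amino acid response (r = 0.60, permutation p = 0.0693) and oxidative phosphorylation (r = 0.52, permutation p = 0.122) had weaker relations to the SD, which did not pass after adjustment over the 4 relations. The multicopy Y level (r = −0.58, permutation p = 0.0828) did not pass either. Its Spearman rho was −0.68 (permutation p = 0.0350, unadjusted), and its r was −0.92 within KO and −0.18 within WT.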

How the data were processed

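The authors deposited log2 values of all 20 arrays, made by RMA (robust multi-array averaging) in Affymetrix Expression Console 1.1, per the submitters' processing notes. The design text names the Affymetrix Exon Array Computational Tool, and the labels' protocols give NuGEN amplification and biotin labelling. The labels speak of an exon array, but the identifiers look like those of a gene-level design, and values were used by feature. No genome build is named by the labels or by the table used here, and no detection calls were used. The deposited ratio of WT over KO was recomputed from the deposited values (largest deviation 1.33e-15). The authors' p-value column, which reaches slightly above 1, was only counted.

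Of 24558 lines 7 without an index were left out. Current names, spans and promoters came from a match to RefSeq genes, which found 23775 features (21840 through accessions, 1392 through symbols and 543 through synonyms).

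Genotypes were compared on the 10 Input arrays by limma 3.58.1 under R 4.3.3 (linear fits with eBayes, two-sided, no covariate, Benjamini-Hochberg over all features, threshold 0.05). The fit was also run on simulated data with independent noise for each feature. Those data lack the differences in spread between arrays described above, so the run cannot show how the fit behaves under them. With 5 cultures per group, the number of arrays limits the precision. Single values were also tested by exact permutation. For gene lists the 1775 symbols with several features were averaged per array. Features set out for naming were Fmr1, Fxr1, Fxr2 and Dgkk, and 12 per direction (those that passed, then the lowest p without overlap). Up to 4 lowest-p members per list, all Fmr1 neighbours and all sex-linked transcripts were set out too, and the text gives part of these. Other named genes were chosen after their values were seen. The 32 lists and the alternatives were chosen with earlier results of these data known. Alternatives are given at the end. Scripts ran in Python 3.11.15 with numpy 2.4.6, pandas 2.3.3, matplotlib 3.10.9 and scipy 1.17.1.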

Additional observations from a re-analysis of the deposited data

Results flagged for a closer look

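Among 60 groups of 5 arrays examined, 4 held a value far from the other 4, with a gap of more than 0.71 of the group's range to its nearest neighbour. Chance gives such a value in about 1 of 20 groups. Ttr read 8.07 in KO replicate 1, against 4.19 to 4.39 in the other KO cultures. Mll2 (now Kmt2d) read 6.44 in KO replicate 1, against 5.60 to 5.74 in the other KO cultures. Ikzf5 read 7.35 in KO replicate 5, against 7.03 to 7.12 in the other KO cultures. Ndufaf2 read 8.90 in WT replicate 5, against 9.27 to 9.39 in the other WT cultures.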

How the results depend on the processing

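Fmr1 stayed lower in KO in all 21 refits that held it, from −1.60 to −1.47, and its adjusted p lay between 0.00159 and 0.00477 when 1 replicate was left out. The number of features that passed was 1 in each of these 10 refits. It was 3 with all 20 arrays in 1 fit (Fmr1, Mnd1 with adjusted p = 0.0285 and Neurl2 with adjusted p = 0.0225), 2 with array weights (Fmr1 and Mnd1, adjusted p = 0.0307) and 2 with the array SD as a covariate (Fmr1 and Mnd1, adjusted p = 0.0321). It was 0 for features with a mean level above 5, since the mean of Fmr1 is below it, with 246 higher and 418 lower at an unadjusted p under 0.05. With the replicate block 1 feature passed (Fmr1, adjusted p = 0.00983), with 586 higher and 864 lower at an unadjusted p under 0.05. Residuals of same-numbered KO and WT arrays correlated at 0.55, 0.36, −0.27, −0.14 and −0.06. The labels do not say that a replicate number is shared between genotypes, and these mixed values cannot settle it. The split at an unadjusted p under 0.05, 398 higher and 550 lower in the reported fit, was 1125 and 490 without KO replicates 2 and 4, 630 and 469 without KO replicate 4, 618 and 1015 without KO replicate 1 and 264 and 366 without KO replicate 5. The SD settings and the omission of KO replicates 2 and 4 were chosen after seeing the data. The causes were not tested. Among named features and list medians, 11 refitted values moved by more than the spread, 4 passed where the reported one did not (Mnd1 and Neurl2, above) and 1172 did neither. Signal near the foot of the scale limits what low transcripts can show.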

Other observations

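A transcript of unassigned role varied between cultures more than between genotypes. C530030P08Rik read 5.76, 8.88, 6.58, 9.44 and 8.76 in KO, against 5.63, 8.93, 8.87, 5.20 and 8.81 in WT at 1 of its features, low in KO replicates 1 and 3 and in WT replicates 1 and 4. One feature of Olfr46, an olfactory receptor gene, read 5.09, 7.11, 4.19, 7.19 and 6.49 in KO, against 5.14, 7.18, 7.83, 4.61 and 7.02 in WT, low in the same 4 cultures. Those 4 cultures also had the Input arrays of highest SD (2.01, 1.97, 2.001 and 1.94) and of lowest median olfactory receptor level (3.41 to 3.50). The part of array spread in these readings was not tested. In CLIP RNA the differences of the C530030P08Rik and Olfr46 features were 0.21 and 0.08. Xist read 9.41, 3.37, 8.68, 3.30 and 3.28 in the KO CLIP arrays, against 3.23, 6.01, 3.36, 3.20 and 8.42 in the WT CLIP arrays, high in the same cultures as in Input. The median over features of the multicopy Y genes Ssty1, Ssty2 and Sly was 3.47, 4.23, 3.66, 4.36 and 3.47 in the KO CLIP arrays, against 3.52, 4.06, 3.93, 3.97 and 3.50 in the WT CLIP arrays. KO replicate 5 and WT replicate 1 were low there, unlike in Input.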
